A study of Homo sapiens with 12 samples.

Results

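Expression of 9 genes used as markers of neuroendocrine (NE) differentiation in prostate cancer was examined in RNA-seq counts from 2 androgen-independent prostate cancer cell lines in which MUC1 was silenced. The genes were taken by their symbols (SYP, CHGA, CHGB, SCG2, ENO2, NCAM1, INSM1, POU3F2 and PEG10) from the 58037 genes of the count table, and all 9 were present. LNCaP-AI cells are LNCaP-derived cells selected for growth without androgen, and DU-145 is a prostate carcinoma line that grows without androgen. Both carried tet-MUC1shRNA, a short hairpin RNA against MUC1 that is transcribed when doxycycline (DOX) is added. The sample labels give androgen-depleted medium (phenol red-free, with charcoal-stripped serum) for both lines, whereas the study's methods give it for LNCaP-AI cells and name unstripped serum for DU-145 cells. Each line contributed 3 vehicle samples and 3 samples that received DOX at 500 ng/ml over 7 days, 12 samples in 4 groups in all. The sample labels name the groups by an shRNA entry (shCTL or shMUC1), whereas in the study's legends the tet-MUC1shRNA cells received vehicle or DOX, and the latter names are used here. DOX-treated cells with a control hairpin were not analysed here, so an action of DOX and an action of the hairpin cannot be told apart.

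NE cells store peptides and amines in dense-core granules and release them by regulated exocytosis, a machinery they share with neurons. In prostate cancer, loss of dependence on androgen can be accompanied by expression of these genes, and pathologists use several of the encoded proteins to recognize NE carcinoma. Among the genes examined, SYP (synaptophysin) is a membrane protein of small synaptic-type vesicles, CHGA, CHGB and SCG2 encode granins, the soluble cargo of dense-core granules, ENO2 encodes neuron-specific enolase, a glycolytic enzyme, and NCAM1 (CD56) is an adhesion molecule. INSM1 is a zinc-finger transcription factor of NE cells and POU3F2 (BRN2) is a neural POU-domain transcription factor. PEG10 is an imprinted gene derived from a retrotransposon and is transcribed from the paternal allele. The granins and other neuronal genes are also known targets of the repressor REST.

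Promoter sequence from RefSeq (GRCh38.p14) was available for 4 of the 9 genes, SYP, CHGA, ENO2 and POU3F2, and not for the other 5 (CHGB, NCAM1, INSM1, SCG2 and PEG10). The 250 bases before each start site are shown because these genes ranged from 0 counts (CHGA) through a few counts (POU3F2) to steady transcription (ENO2) in the same cells, and because the study addressed MYC at the POU3F2 promoter. They lie at chrX:49200194-49200443 on the minus strand (SYP), chr14:92922900-92923149 on the plus strand (CHGA), chr12:6914330-6914579 on the plus strand (ENO2) and chr6:98834324-98834573 on the plus strand (POU3F2). Capitals mark matches to CANNTG, the general E-box, and all other bases are in lower case.
SYP: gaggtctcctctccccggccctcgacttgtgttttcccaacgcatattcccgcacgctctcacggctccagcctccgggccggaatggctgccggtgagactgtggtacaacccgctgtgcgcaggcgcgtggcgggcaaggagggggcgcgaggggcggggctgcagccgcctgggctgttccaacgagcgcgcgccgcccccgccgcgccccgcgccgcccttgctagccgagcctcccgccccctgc
CHGA: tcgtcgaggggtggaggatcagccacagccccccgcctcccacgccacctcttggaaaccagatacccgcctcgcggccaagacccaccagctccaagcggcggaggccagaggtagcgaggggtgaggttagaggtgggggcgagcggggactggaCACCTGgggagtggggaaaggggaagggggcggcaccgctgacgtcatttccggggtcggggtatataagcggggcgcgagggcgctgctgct
ENO2: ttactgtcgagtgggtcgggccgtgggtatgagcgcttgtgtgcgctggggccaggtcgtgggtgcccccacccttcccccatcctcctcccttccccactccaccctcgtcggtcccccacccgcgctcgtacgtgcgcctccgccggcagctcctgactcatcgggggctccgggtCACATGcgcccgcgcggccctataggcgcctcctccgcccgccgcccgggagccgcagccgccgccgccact
POU3F2: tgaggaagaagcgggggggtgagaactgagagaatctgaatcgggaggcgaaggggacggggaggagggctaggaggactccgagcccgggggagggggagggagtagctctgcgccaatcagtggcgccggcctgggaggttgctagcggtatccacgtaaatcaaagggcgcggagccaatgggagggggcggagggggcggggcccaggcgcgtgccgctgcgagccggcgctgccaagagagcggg
In the window of 300 bases that ends 50 bases after the start site, searched on both strands, CHGA held 1 E-box (CACCTG, at -93 from the start site) and ENO2 held 1 (CACATG, at -72), and a CANNTG match was found in 68.7% of 35116 promoters of the same length. CACGTG, an E-box form bound by MYC, was not among the letters of these 4 windows and occurs in 7.26% of all promoters. The putative MYC sites that the study mutated in the POU3F2 promoter, CAAGTG and CAGATG, are other forms. By the study's numbering they lie upstream of the bases shown here. CACGTG is itself a CANNTG. The E2F motifs TTTCCCGC (1.63% of promoters) and TTTGGCGC (0.652%) and the REST element parts TTCAGCACC (0.376%) and GGACAGC (6.03%) were not in these windows either. All 4 promoters were richer in CG dinucleotides than the median promoter, which had 14, with 35 in SYP, 24 in CHGA, 38 in ENO2 and 24 in POU3F2. These are matches of letters in a short window and say nothing about whether a factor is bound there or further away.

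MUC1, the target of the hairpin, was lower in every DOX sample than in every vehicle sample of its line. In DU-145 cells MUC1 had 74, 60 and 59 counts with vehicle and 3, 3 and 3 with DOX (log2 fold change -4.39, SE 0.315, adjusted p = 1.37e-09), and in LNCaP-AI cells 36, 25 and 52 with vehicle and 8, 6 and 3 with DOX (log2 fold change -2.50, SE 0.330, adjusted p = 0.0139). Adjusted p values are from edgeR's quasi-likelihood test with Benjamini-Hochberg adjustment over all genes tested, and a gene was called at an adjusted p under 0.05. In each line MUC1 passed the minimum for testing, which was 10 counts in at least 3 samples of the comparison, only through its vehicle samples. The MUC1 call in LNCaP-AI cells was lost without DOX replicate 2 (adjusted p = 0.0854) or DOX replicate 3 (adjusted p = 0.0829). Libraries held 10423437 to 13544153 counts in DU-145 cells and 16569613 to 26961777 in LNCaP-AI cells. The luminal markers KLK3, KLK2, FOLH1 and HOXB13 were at 0 counts in every DU-145 sample and abundant in every LNCaP-AI sample (FOLH1 12428 to 22813 counts), and the leukocyte markers PTPRC, CD3E and LYZ did not exceed 3 counts in any sample.

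Treatment was not the main difference among the LNCaP-AI samples. Along principal component 1 of log2 expression, which held 82.5% of the variance, vehicle 2, vehicle 3 and DOX 1 lay apart from vehicle 1, DOX 2 and DOX 3. Neither the labels nor the study's methods name a batch that matches this division, and its origin was not tested. The component was computed from the same counts, so differences between these sets of samples are given below as levels, with no test. Of 16030 genes tested in LNCaP-AI cells, 638 (3.98%) had a mean more than 8-fold higher in vehicle 2, vehicle 3 and DOX 1 than in the other set (prior count 2) with no overlap, and 0 were more than 8-fold lower. The basal keratin KRT5 had 789, 1434 and 935 counts in vehicle 2, vehicle 3 and DOX 1 and 1, 0 and 0 in vehicle 1, DOX 2 and DOX 3. Of the other basal markers listed, TP63 had 19, 25 and 14 counts and 2, 0 and 0 in the same order. KRT14 did not follow the division, with 22, 20 and 27 counts with vehicle and 75, 76 and 74 with DOX. Levels are given below as CPM, counts relative to library size, normalized by TMM and scaled to a common size.

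**Figure D1:**
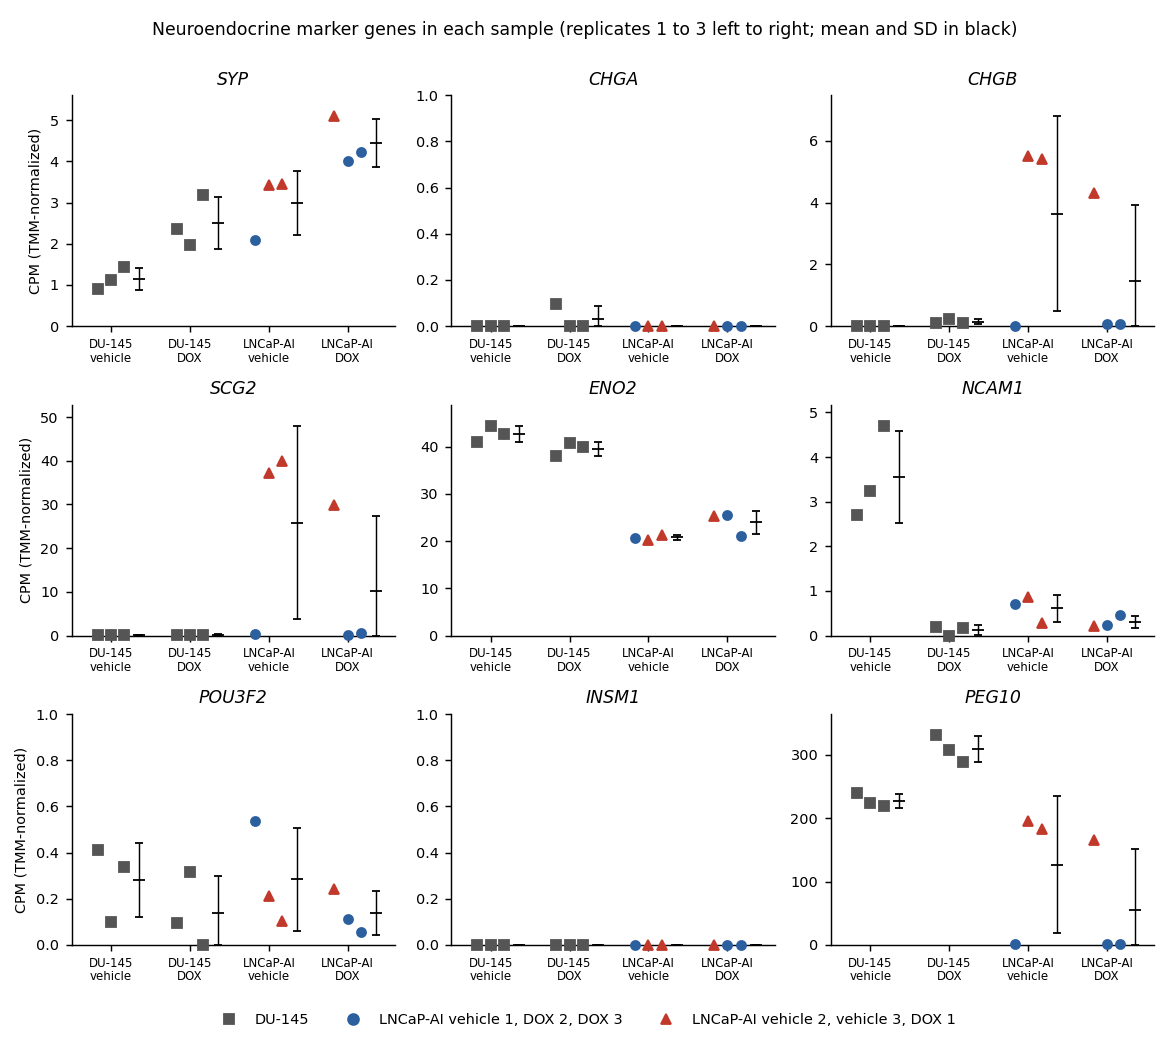
Level of each gene (CPM, linear axes starting at 0, a separate scale for each gene) in the 12 samples, with replicates 1 to 3 from left to right in each group and the group mean and SD in black. Triangles are LNCaP-AI vehicle 2, vehicle 3 and DOX 1, and circles are LNCaP-AI vehicle 1, DOX 2 and DOX 3. CHGB, SCG2 and PEG10 follow the triangles and circles, SYP is higher in every DOX sample than in every vehicle sample of its line, NCAM1 is lower with DOX in DU-145 cells, and CHGA and INSM1 lie at or near 0.

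INSM1 and CHGA were at or near 0 in all samples, and POU3F2 did not exceed 12 counts in any. INSM1 had 0 counts in all 12 samples, which allows up to 0.111 to 0.288 CPM of the library total, taking 3 counts as the limit that a count of 0 allows. CHGA had 1 count in DU-145 DOX replicate 1 and 0 counts in each of the other 11 samples. POU3F2 was detected at a low level in both lines. With vehicle it had 5, 1 and 4 counts in DU-145 cells and 12, 4 and 3 in LNCaP-AI cells, and with DOX 1, 4 and 0 in DU-145 cells and 6, 2 and 1 in LNCaP-AI cells. Vehicle and DOX samples overlapped in both lines, and POU3F2 was below the minimum for testing. With this minimum removed, the log2 fold change of POU3F2 was -0.96 in DU-145 cells (adjusted p = 0.556) and -0.97 in LNCaP-AI cells (adjusted p = 0.587), so that a change of this size was not detectable at this depth. These limits cover counting error only. Because the RNA came from whole cultures, fewer cells with a transcript and less transcript per cell cannot be told apart here or below.

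SYP was expressed at a low level. In both lines the DOX samples all exceeded the vehicle samples, and the change passed the test in DU-145 cells and not in LNCaP-AI cells. In DU-145 cells SYP (X chromosome, 49187815 to 49200218 on the minus strand, GRCh38) had 11, 11 and 17 counts with vehicle and 25, 25 and 36 with DOX. The mean level went from 1.15 ± 0.265 CPM (SD, n = 3) to 2.51 ± 0.625 CPM, a log2 fold change of 1.12 (SE 0.304, adjusted p = 0.00467), with no overlap between the groups. In LNCaP-AI cells SYP had 47, 64 and 99 counts with vehicle and 125, 70 and 75 with DOX. Mean levels were 2.99 ± 0.770 and 4.44 ± 0.576 CPM (SD, n = 3), again without overlap, but the log2 fold change of 0.55 (SE 0.241, 95% CI -0.04 to 1.14) was not called (adjusted p = 0.185). SYP did not separate the sets of LNCaP-AI samples, with means of 3.98 CPM in vehicle 2, vehicle 3 and DOX 1 and 3.44 CPM in the others. Within these sets the log2 difference of DOX over vehicle was 0.55 and 0.93. With the division entered as a covariate, the log2 fold change of SYP in LNCaP-AI cells was 0.70 and was called (adjusted p = 0.00275). This covariate was taken from the same counts, and 6271 of 16030 genes were called with it. The interaction of line and DOX, that is the log2 fold change in LNCaP-AI minus that in DU-145 cells, was not called for SYP (log2 -0.55, 95% CI -1.40 to 0.30, adjusted p = 0.411). SYP-AS1, an antisense transcript that overlaps SYP, had at most 1 count in any sample. Of the SYP paralogs, SYPL1, a broadly expressed relative, was not called in either line (log2 fold change -0.24 in DU-145 cells and -0.19 in LNCaP-AI cells), SYPL2 had 14 to 29 counts in DU-145 cells and at most 3 in LNCaP-AI cells, and SYNPR had at most 1 count.

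ENO2 was the most steadily expressed of the genes and changed little with DOX. ENO2 (chromosome 12, 6913745 to 6923698 on the plus strand) had 500, 439 and 508 counts with vehicle and 402, 517 and 451 with DOX in DU-145 cells. In LNCaP-AI cells the counts were 465, 379 and 613 with vehicle and 619, 448 and 374 with DOX. Scaled to CPM, ENO2 went from 42.7 ± 1.72 (SD, n = 3) with vehicle to 39.6 ± 1.44 with DOX in DU-145 cells, where each DOX sample was below each vehicle sample, and from 20.8 ± 0.508 to 24.0 ± 2.50 in LNCaP-AI cells, where the groups overlapped. Neither change was called (log2 fold change -0.10, 95% CI -0.26 to 0.06, adjusted p = 0.294 in DU-145 cells, and 0.18, 95% CI -0.09 to 0.45, adjusted p = 0.336 in LNCaP-AI cells). The interaction was not called either (log2 0.32, SE 0.120, adjusted p = 0.126). Part of LRRC23 overlaps ENO2 on the same strand, and the counting of reads shared by both genes is not given in the sources used here. ENO1, the ubiquitous enolase, was much more abundant, with 28005 to 59317 counts, and was not called in either line (log2 fold change 0.02 in DU-145 cells and -0.20 in LNCaP-AI cells). ENO3, the muscle enolase, was not called in either line (-0.20 and -0.65, adjusted p = 0.484 and 0.0537).

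NCAM1 was expressed in DU-145 vehicle samples and nearly absent from DU-145 samples with DOX. NCAM1 (chromosome 11, 112961275 to 113278436 on the plus strand) had 33, 32 and 56 counts in DU-145 cells with vehicle and 2, 0 and 2 with DOX. Its level fell from 3.55 ± 1.03 CPM (SD, n = 3) to 0.122 ± 0.106 CPM, a log2 fold change of -4.81 (SE 0.501, 95% CI -5.86 to -3.76, adjusted p = 2.06e-07). The counts in the DOX samples were at the floor of 3, so the size of the fall rests on few reads, while the direction was the same in all of the samples. NCAM1 passed the minimum for testing in DU-145 cells only through the vehicle samples, where it was high, so it could be tested there only because the groups differed. When any 1 of the 3 vehicle samples was left out it fell below the minimum and was not tested. In LNCaP-AI cells NCAM1 was already low, with 16, 16 and 8 counts with vehicle and 5, 4 and 8 with DOX. These groups overlapped, and NCAM1 was below the minimum for testing in LNCaP-AI cells alone (log2 fold change -1.11, adjusted p = 0.35 with no minimum). The interaction was called for NCAM1 over all 12 samples (log2 3.80, SE 0.925, adjusted p = 0.0303). That call was lost when DU-145 vehicle 3, any of DU-145 DOX 1, 2 and 3, or LNCaP-AI DOX 2 or 3 was left out (adjusted p = 0.0545 to 0.0912, log2 3.19 to 4.25). With a replicate block it was lost as well (adjusted p = 0.175), and DESeq2 gave no adjusted p for it. In the fit of all 12 samples, too, NCAM1 passed the minimum for testing only through vehicle samples. NCAM2, the neuronal paralog, had the opposite distribution between the lines, with 4927 to 8231 counts in LNCaP-AI cells and at most 1 count in DU-145 cells, and was not called with DOX in LNCaP-AI cells (log2 fold change 0.23, SE 0.235, adjusted p = 0.561). NCAM1-AS1, which overlaps NCAM1 on the other strand, had 0 counts in all samples.

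CHGB and SCG2, the other granin genes, exceeded 10 counts in 3 of the 12 samples, and these did not correspond to a treatment. CHGB (chromosome 20, 5911510 to 5925353 on the plus strand) had 0, 103 and 156 counts in the LNCaP-AI vehicle samples and 106, 1 and 1 in the DOX samples. SCG2 (chromosome 2, 223596940 to 223602361 on the minus strand) had 7, 696 and 1152 counts with vehicle and 734, 2 and 10 with DOX. The high values of both genes were thus in vehicle 2, vehicle 3 and DOX 1. In these samples CHGB averaged 5.08 CPM and SCG2 35.7 CPM, whereas in vehicle 1, DOX 2 and DOX 3 the means were 0.0378 CPM and 0.330 CPM. The treatment groups overlapped, and the log2 fold changes with DOX of -1.28 for CHGB (SE 1.89, 95% CI -5.89 to 3.32, adjusted p = 0.682) and -1.35 for SCG2 (SE 2.01, 95% CI -6.23 to 3.54, adjusted p = 0.684) have intervals that span large changes in either direction. CHGB passed the minimum for testing only through the 3 samples in which it was high, and SCG2 through these and DOX 3, which had 10 counts. Among vehicle 2, vehicle 3 and DOX 1, DOX differed from vehicle by -0.33 for CHGB and -0.37 for SCG2 on the log2 scale, with a prior count of 2. In DU-145 cells CHGB had 0 counts in each vehicle sample and 1, 3 and 1 with DOX, and SCG2 had 1, 2 and 2 counts with vehicle and 1, 3 and 2 with DOX. All of these values are at or under the floor of 3 counts, and no fold change is given for them.

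PEG10 was the most abundant of the genes in DU-145 cells and, in LNCaP-AI cells, the gene most divided between samples. PEG10 (chromosome 7, 94656325 to 94669695 on the plus strand) had 2931, 2206 and 2608 counts in the DU-145 vehicle samples and 3507, 3902 and 3258 in the DOX samples. Its level rose from 228 ± 11.2 CPM (SD, n = 3) to 309 ± 21.1 CPM, with no overlap (log2 fold change 0.45, SE 0.0705, adjusted p = 2.89e-05). The call was lost when all 12 samples shared an estimate of the spread (log2 fold change 0.44, adjusted p = 0.911). In LNCaP-AI cells PEG10 had 40, 3663 and 5266 counts with vehicle and 4060, 16 and 13 with DOX. As for the granins, vehicle 2, vehicle 3 and DOX 1 were high, at 165 to 196 CPM, and the other 3 samples were at 0.733 to 1.79 CPM. The log2 fold change with DOX was -1.20 (SE 2.14, 95% CI -6.41 to 4.01, adjusted p = 0.731) and without DOX replicate 1 it was -7.27 (adjusted p = 0.0503). Without DOX replicate 1 the interaction was called for PEG10 (log2 -7.70, adjusted p = 0.0156), against -1.62 with all samples (adjusted p = 0.711). DOX replicate 1 was the only DOX sample among the high LNCaP-AI samples, so without it DOX and the division largely coincided. The division was taken from the same counts, and with it as a covariate 6271 of 16030 genes were called. Among them was PEG10 (adjusted p = 0.0468), for which the log2 fold change with DOX in LNCaP-AI cells was -0.31. Within the sets it was -0.20 among the high samples and -1.01 among the low ones, where counts were 40 with vehicle and 16 and 13 with DOX.

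SGCE, the imprinted gene that starts beside PEG10 and is transcribed away from it, followed the same division. It had 1, 244 and 399 counts in the LNCaP-AI vehicle samples and 281, 2 and 1 in the DOX samples. Their first bases overlap, and without a stated strand setting in the counting the reads of this short stretch cannot be assigned with certainty. In DU-145 cells, SGCE had 1010 to 1180 counts with vehicle and 998 to 1138 with DOX and was not called (log2 fold change -0.05, adjusted p = 0.575), in contrast to the call for PEG10; the difference between these neighbours was not tested. Of the 15 genes listed around PEG10 at 7q21, 3 (SGCE, TFPI2 and GNG11) were more than 8-fold higher in vehicle 2, vehicle 3 and DOX 1, beside 3.98% of all genes tested. The other 12 were not. Of these, PON3 had 6, 7 and 10 counts in vehicle 2, vehicle 3 and DOX 1 and 1, 0 and 0 in the others, PDK4 was at 0.326 to 0.591 CPM against 0.113 to 0.268, and PON1 had at most 1 count, each higher without overlap. CASD1, which overlaps SGCE on the other strand, was lower without overlap, averaging 18.0 CPM in these samples and 23.6 CPM in the others, as were BET1 and PON2. Over all genes tested, 35.2% were without overlap between these sets in either direction. PPP1R9A overlapped, at 13.7 and 15.4 CPM. TFPI2, a protease inhibitor, had 2, 352 and 484 counts with vehicle and 407, 0 and 1 with DOX. GNG11, a G protein gamma subunit, had 0, 61 and 88 counts with vehicle and 66, 0 and 0 with DOX. In DU-145 cells 12 of the 15 were tested, and 4 were higher (CALCR, TFPI2, GNG11 and DYNC1I1) and 4 lower (BET1, CASD1, PPP1R9A and PDK4) with DOX, beside 26.3% of all genes called as higher and 25.3% as lower. For these 12 genes the median was -0.03 on the log2 scale, beside 0.00055 over all genes tested. DYNC1I1, a neuronal dynein intermediate chain, was higher with DOX in both lines (log2 fold change 2.92, SE 0.241, adjusted p = 9.25e-09 in DU-145 cells and 1.96, SE 0.216, adjusted p = 0.0123 in LNCaP-AI cells). The retrotransposon-derived relatives of PEG10 were unlike each other. RTL1, also imprinted, had 0, 82 and 151 counts with vehicle and 81, 0 and 0 with DOX in LNCaP-AI cells, LDOC1 was higher with DOX in both lines (0.57, SE 0.0911, adjusted p = 0.0182 in LNCaP-AI cells and 0.42, SE 0.0837, adjusted p = 0.000338 in DU-145 cells), and RTL3 had 0 counts throughout.

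**Figure D2:**
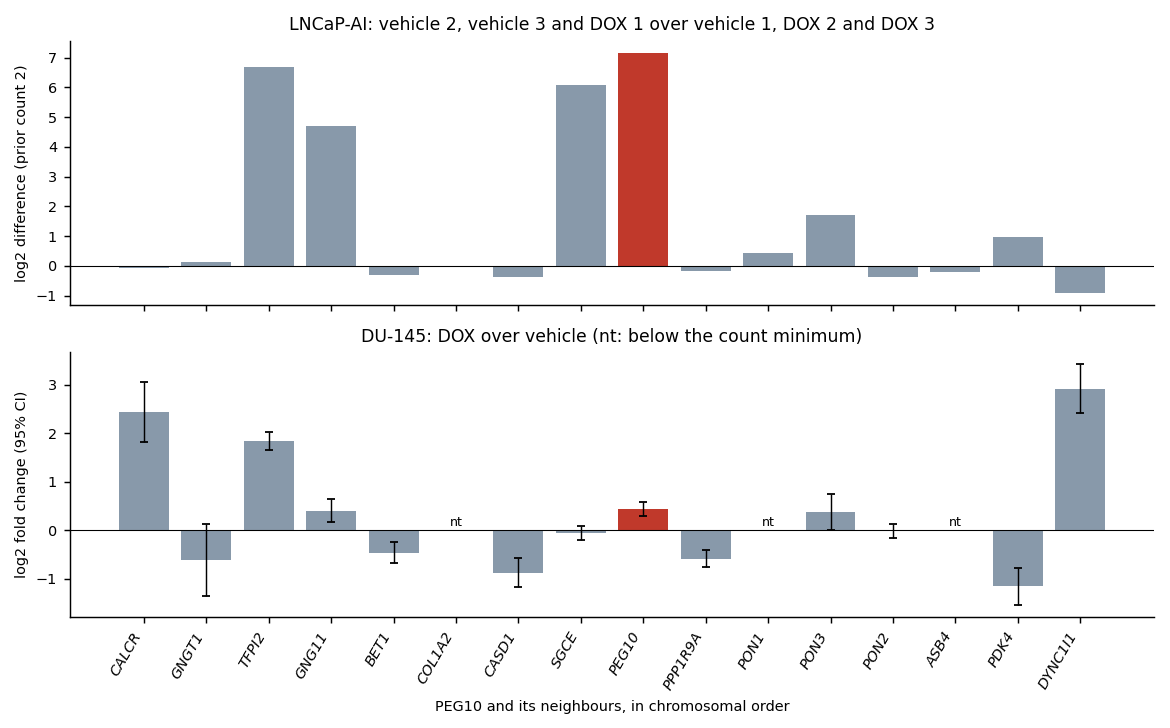
PEG10 and its 15 listed neighbours in chromosomal order. The upper panel gives the log2 difference in mean level between LNCaP-AI vehicle 2, vehicle 3 and DOX 1 and the other LNCaP-AI samples (prior count 2), which is large for TFPI2, GNG11, SGCE and PEG10 (7.17) and at most 1.71 (PON3) for the others. The lower panel gives the log2 fold change of DOX over vehicle in DU-145 cells with 95% confidence intervals.

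Set side by side, 3 of the 9 genes passed the test with DOX in DU-145 cells and 0 in LNCaP-AI cells, and NCAM1 was the gene with a called interaction. In DU-145 cells 3 of the 9 genes were called, SYP and PEG10 as higher and NCAM1 as lower, ENO2 was tested and not called, and 5 were below the minimum (CHGA, CHGB, SCG2, INSM1 and POU3F2). Over all genes, 51.5% of the 13644 tested were called in that comparison, 26.3% as higher and 25.3% as lower. In LNCaP-AI cells 0 of the 9 were called, 5 were tested (SYP, CHGB, SCG2, ENO2 and PEG10) and 4 were below the minimum, beside 12.7% of 16030 genes called by edgeR. None of the 5 had an unadjusted p under 0.05, which 5003 of all genes had, and DESeq2 likewise called 0 of them. In the interaction test, 6 of the 9 were tested and 1 (NCAM1) was called, beside 9.18% of 16800 genes. SYP in LNCaP-AI cells was the gene whose groups did not overlap although it was not called, a pattern of non-overlap that 38.1% of all tested genes had, and ENO2 in DU-145 cells was the other, beside 57.3%. With 3 samples against 3, an exact permutation test of any single gene cannot give a p below 0.1.

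**Figure D3:**
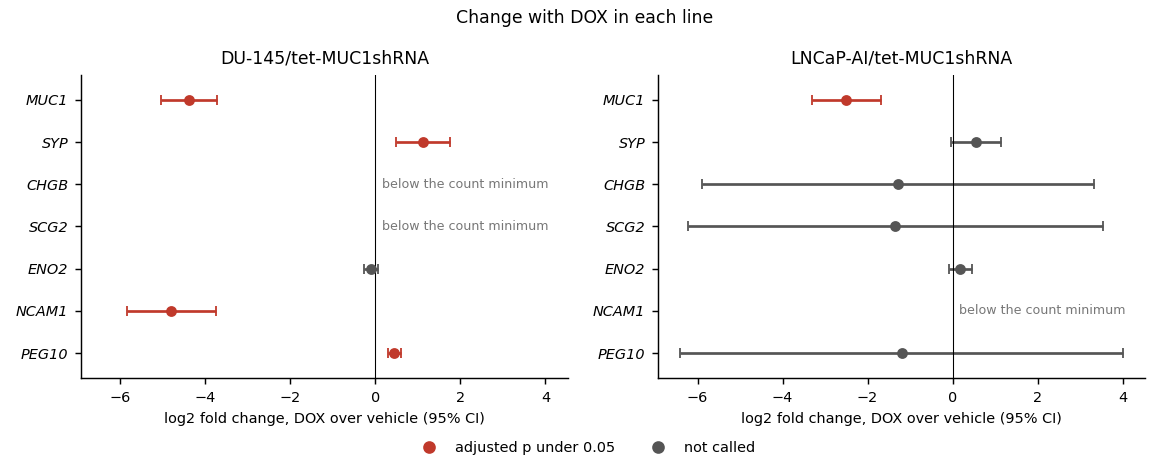
Log2 fold change of DOX over vehicle in DU-145 cells (left) and LNCaP-AI cells (right) for MUC1 and for each marker tested in at least 1 line, with 95% confidence intervals from edgeR's quasi-likelihood fit. Filled red points are called. In DU-145 cells MUC1 and NCAM1 lie near -4.39 and -4.81, and in LNCaP-AI cells the intervals of CHGB, SCG2 and PEG10 span several log2 units on both sides of 0.

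With vehicle the lines differed in which genes they expressed. Between the vehicle samples, ENO2 was higher in DU-145 than in LNCaP-AI cells (log2 difference 1.08, SE 0.0930, adjusted p = 7.07e-05), as was NCAM1 (2.60, SE 0.430, adjusted p = 0.00143), and SYP was lower (-1.34, SE 0.308, adjusted p = 0.00679). Of the 9 genes 4 were tested here. The 3 called of these 4 stand beside 65.1% of 15628 genes called between the lines, 30.2% as higher and 35.0% as lower. PEG10 was higher in every DU-145 vehicle sample, as 73.3% of genes were without overlap in either direction, but the difference was not called (0.88, 95% CI -1.77 to 3.53, adjusted p = 0.514), and it was 0.23 without LNCaP-AI vehicle 1 (adjusted p = 0.0282). CHGB and SCG2 reached 10 counts in only 2 of these 6 samples, LNCaP-AI vehicle 2 and vehicle 3. With no minimum, both were called as lower in DU-145 cells by edgeR (adjusted p = 0.00292 and 0.000261), although LNCaP-AI vehicle 1 had 0 CHGB and 7 SCG2 counts. Differences between the lines and differences in their handling cannot be told apart.

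Per kilobase of annotated exon, which allows genes to be compared, PEG10 led in DU-145 vehicle samples with 34.0 ± 1.68 CPM per kilobase (SD, n = 3), followed by ENO2 with 9.97 ± 0.402. NCAM1 at 0.280 ± 0.0815 and SYP at 0.164 ± 0.0379 were next, with overlapping ranges of mean ± SD, and SCG2 (0.0585 ± 0.0241) and POU3F2 (0.0578 ± 0.0330) did not differ beyond their spread. With DOX the order in DU-145 cells was PEG10 (46.2 ± 3.15), ENO2 (9.24 ± 0.336) and SYP (0.359 ± 0.0896), and NCAM1 had dropped to 0.00961 ± 0.00834, among the genes near 0. In LNCaP-AI vehicle 2, vehicle 3 and DOX 1 the order was PEG10 (24.7 to 29.3 CPM per kilobase), SCG2 (11.6 to 15.5), ENO2 (4.74 to 5.89), CHGB (0.971 to 1.24) and SYP (0.491 to 0.730), with no overlap between neighbours. In vehicle 1, DOX 2 and DOX 3 it was ENO2 (4.85 to 5.98), SYP (0.301 to 0.606), PEG10 (0.110 to 0.267) and SCG2 (0.0443 to 0.219), of which PEG10 and SCG2 overlapped. ENO2 averaged 22.3 and 22.5 CPM in these sets of LNCaP-AI samples. PEG10 and SCG2 were above ENO2 in the first set and below it in the other, and CHGB was below it in both.

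Genes of the same cellular machinery were examined in lists. Of 14 genes for granule cargo and processing, 3 were more than 8-fold higher in LNCaP-AI vehicle 2, vehicle 3 and DOX 1 than in the other LNCaP-AI samples, beside 3.98% of all genes tested. PCSK1, a prohormone convertase, had 0, 68 and 131 counts with vehicle and 94, 0 and 2 with DOX. PTPRN, a granule membrane protein, had 0, 21 and 34 counts with vehicle and 17, 0 and 1 with DOX, and SCG5, a granin-like chaperone, had 2, 31 and 49 counts with vehicle and 43, 1 and 1 with DOX. VGF, a granin-like protein, and PAM, which amidates peptides, were also higher in these samples without overlap, though by less. VGF was at 24.0 to 32.3 CPM in vehicle 2, vehicle 3 and DOX 1 and at 11.8 to 15.2 CPM in the others, and PAM at 49.9 to 55.8 and 23.9 to 29.4 CPM. Such non-overlap in either direction was seen in 35.2% of all genes tested. PCSK1N, the inhibitor of PCSK1, was higher with DOX in LNCaP-AI cells, with 48, 45 and 120 counts with vehicle and 215, 181 and 164 with DOX (log2 fold change 1.67, SE 0.280, adjusted p = 0.0202), and in DU-145 cells, with 22, 21 and 26 counts and 29, 42 and 41 (0.68, SE 0.236, adjusted p = 0.0222). It was the only gene called of 10 tested in LNCaP-AI cells, beside 12.7% of all genes, and the median log2 fold change of the 10 was -0.36, beside -0.05 over all genes. In DU-145 cells 4 were tested and 3 called, beside 51.5% of all genes. Besides PCSK1N, PAM was higher (0.27, SE 0.0663, adjusted p = 0.00188), CPE, a carboxypeptidase, was lower (-0.46, SE 0.143, adjusted p = 0.0111), and VGF was not called. CADPS and SLC18A1 had 0 counts in every sample.

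Among 17 genes of vesicle exocytosis, SNAP25 and SYN1 had the same division in LNCaP-AI cells. SYN1, which tethers synaptic vesicles, had 0, 121 and 214 counts with vehicle and 112, 2 and 0 with DOX. SNAP25, a SNARE protein, had 0, 37 and 57 counts with vehicle and 36, 0 and 0 with DOX, whereas in DU-145 cells it had 20 to 39 counts and was not called (log2 fold change 0.14, adjusted p = 0.723). These were 2 of the 17 genes more than 8-fold higher, beside 3.98% of all genes tested. None of the 12 tested in LNCaP-AI cells was called with DOX by edgeR, beside 12.7% of all genes. In DU-145 cells 13 were tested, 4 were higher (SYNGR2, DNAJC5, STX1A and CPLX1) and 3 lower (SV2A, VAMP2 and SYNGR1), a share close to the 51.5% called over all genes. Among them were STX1A, a plasma membrane SNARE (0.61, SE 0.115, adjusted p = 0.000179), and SV2A, a vesicle glycoprotein (-0.89, SE 0.214, adjusted p = 0.00185). SYNGR1 and SYNGR2, relatives of SYP in the vesicle membrane, thus went in opposite directions in DU-145 cells.

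**Figure D4:**
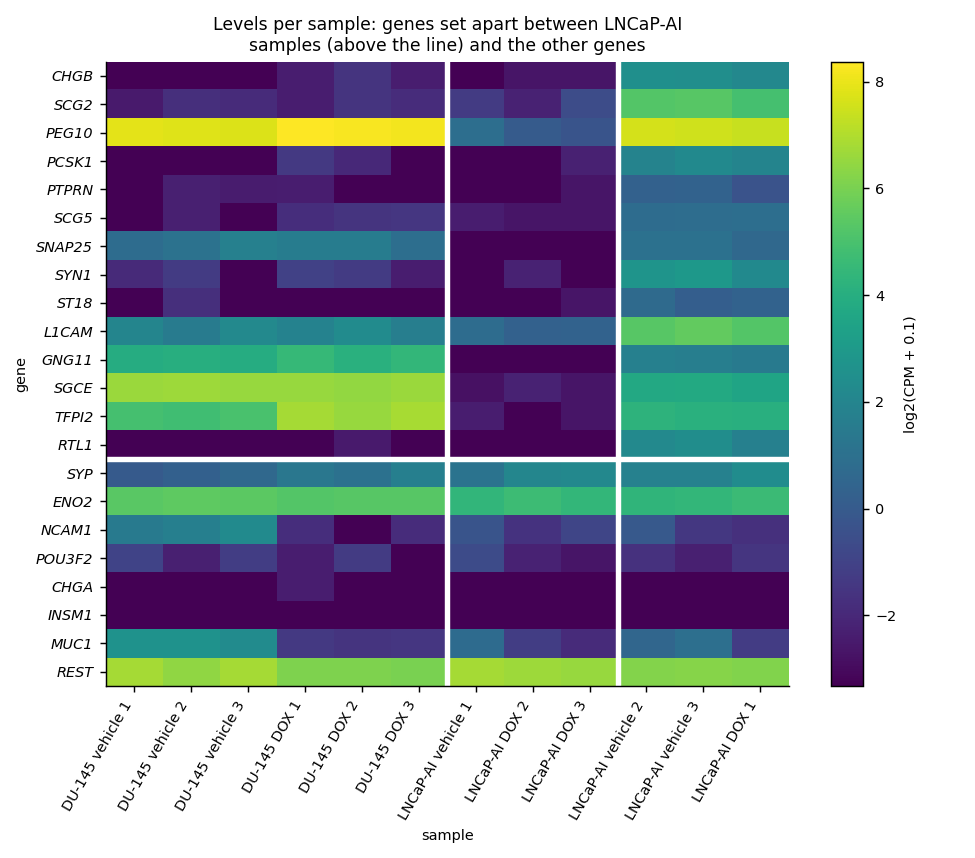
Level of each gene in each sample as log2(CPM + 0.1), with DU-145 samples on the left, LNCaP-AI vehicle 1, DOX 2 and DOX 3 in the middle and LNCaP-AI vehicle 2, vehicle 3 and DOX 1 on the right. Above the horizontal line are CHGB, SCG2, PEG10 and the listed genes more than 8-fold higher in the right-hand LNCaP-AI samples, and below it the other markers with MUC1 and REST. PEG10, SGCE, TFPI2 and GNG11 are also high in DU-145 cells, while CHGB, SCG2, PCSK1, SYN1 and RTL1 are near 0 there.

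Several transcription factors of neural and NE cells were at or near 0, and others were expressed. Of 17 listed, 7 did not exceed 3 counts in any LNCaP-AI sample, including SOX2 (at most 2 counts in any of the 12 samples), and NEUROD1 and MYCN (0 in all). Clearly expressed in every LNCaP-AI sample were ONECUT2 (404 to 1091 counts), HES6 (296 to 534) and SOX11 (61 to 244). PROX1, a homeodomain factor, was the gene called of 9 tested in LNCaP-AI cells, with 8, 5 and 5 counts with vehicle and 43, 38 and 36 with DOX (log2 fold change 2.86, SE 0.323, adjusted p = 0.0123), and it passed the minimum for testing only through the DOX samples. In DU-145 cells 5 were tested and 2 called. NKX2-1, the lung and thyroid factor, had 1161, 875 and 1185 counts with vehicle and 508, 686 and 599 with DOX (-0.86, SE 0.0760, adjusted p = 2.23e-08), and LHX2, a LIM homeodomain factor, was lower as well (-0.99, SE 0.209, adjusted p = 0.000577). ST18 was divided in the way of CHGB, with 0, 29 and 30 counts with vehicle and 29, 0 and 1 with DOX. Of 13 neuropeptide genes, 8 did not exceed 3 counts in any LNCaP-AI sample, GRP, NTS, SST and POMC had 0 counts throughout, and no gene was called with DOX among the 2 tested in LNCaP-AI cells or the 1 tested in DU-145 cells.

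REST, the repressor of neuronal genes, passed the test as lower with DOX in DU-145 cells and was not called in LNCaP-AI cells. REST had 1368, 840 and 1331 counts in DU-145 vehicle samples and 730, 867 and 738 with DOX, a log2 fold change of -0.60 (SE 0.0900, adjusted p = 1.56e-05). In LNCaP-AI cells REST had 2493, 1373 and 2158 counts with vehicle and 1746, 1749 and 1689 with DOX and was not called (0.01, SE 0.219, adjusted p = 0.989). The interaction was not called for REST (0.64, SE 0.255, adjusted p = 0.141). REST averaged 73.2 CPM in LNCaP-AI vehicle 2, vehicle 3 and DOX 1 and 102 CPM in the others, without overlap, beside 35.2% of all genes tested. CHGB, SCG2, SYN1 and SNAP25 were high in vehicle 2, vehicle 3 and DOX 1, and the part of REST in their levels was not tested. SRRM3, a neuronal splicing regulator, was lower with DOX in both lines, with 48, 40 and 62 counts and 21, 17 and 14 in DU-145 cells (-1.53, SE 0.249, adjusted p = 4.07e-05) and 22, 22 and 29 counts and 8, 6 and 5 in LNCaP-AI cells (-1.74, SE 0.256, adjusted p = 0.0159), where it passed the minimum only through the vehicle samples. SRRM4, its relative linked to NE splicing, had at most 1 count in any sample. Of the 18 genes, 17 were tested in each line, with 5 higher and 5 lower in DU-145 cells, beside 26.3% and 25.3% of all genes, and 0 higher and 2 lower (SRRM3 and SIN3A) in LNCaP-AI cells, beside 7.22% and 5.52%. Their median log2 fold change was -0.04 in DU-145 and -0.15 in LNCaP-AI cells, beside 0.00055 and -0.05 over all genes.

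Of 13 regulators and surface proteins of NE prostate cancer, 4 of 10 tested were lower and 1 higher with DOX in DU-145 cells, beside 25.3% and 26.3% of all genes, and 3 of 11 tested were lower and 0 higher in LNCaP-AI cells, beside 5.52% and 7.22%. Their median log2 fold changes were -0.16 and -0.72, beside 0.00055 and -0.05 over all genes. AURKA, a mitotic kinase, had 3229, 2852 and 3061 counts with vehicle and 2206, 2498 and 2244 with DOX in DU-145 cells (log2 fold change -0.42, SE 0.0686, adjusted p = 4.8e-05), a call that was lost when all 12 samples shared an estimate of the spread (adjusted p = 0.259). In LNCaP-AI cells it had 2851, 3396 and 4873 counts with vehicle and 2893, 1006 and 989 with DOX, and was not called although every DOX sample was lower in CPM (-1.07, SE 0.325, adjusted p = 0.0824). It was called there by DESeq2 (adjusted p = 0.00321), with all 12 samples in a single fit (0.013), with the division as a covariate (1.54e-07) and without DOX replicate 1 (0.0044), and not under the other 5 settings run with all samples (adjusted p up to 0.248). The covariate was taken from the same counts and gave 6271 calls over all genes. Without DOX replicate 1, all DOX samples left were in the set of vehicle 1, so DOX and the division then largely coincided. EZH2, the histone H3 methyltransferase of PRC2, was lower with DOX in LNCaP-AI cells, with 1513, 1339 and 1853 counts and 1169, 658 and 722 (-0.72, SE 0.113, adjusted p = 0.0180), and was not called in DU-145 cells (0.11, adjusted p = 0.165), a difference between the lines that was itself called (-0.79, SE 0.119, adjusted p = 0.00343). The EZH2 call in LNCaP-AI cells was lost without DOX replicate 2 or 3 (adjusted p = 0.0981 and 0.102). The DNA methyltransferases DNMT1 (-0.78, adjusted p = 0.0257) and DNMT3B (-1.21, adjusted p = 0.0315) were also lower in LNCaP-AI cells. In DU-145 cells DNMT3A and DNMT3B were lower with AURKA, and UCHL1, a neuronal deubiquitinase with 9374 to 13706 counts in DU-145 cells and at most 9 in LNCaP-AI cells, was higher (0.39, SE 0.0807, adjusted p = 0.000472). DLL3, a Notch ligand of NE tumours, had 31 to 42 counts in DU-145 cells and 184 to 359 in LNCaP-AI cells and was not called in either. L1CAM, a neural adhesion molecule, had 37, 748 and 1376 counts with vehicle and 935, 20 and 21 with DOX in LNCaP-AI cells. The calls of the lists in LNCaP-AI cells come from a comparison in which leaving out DOX replicate 2 or DOX replicate 3 reduced the calls over all genes from 2043 to 1.

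The genes with the profile most like each marker were sought among 14155 genes with a mean of at least 1 CPM, by the root mean square difference of centred log2 CPM over the 12 samples. The measure is a description, and the 12 samples share lines, treatments and the LNCaP-AI division. NCAM1 lay closest to MUC1 (0.771 log2 units), then GLCE (0.843) and ATOH8 (0.899). These distances are large beside those of the other markers below, and the root mean square of NCAM1 around its own mean was 1.57. In the DU-145 DOX samples NCAM1 (2, 0 and 2 counts) and MUC1 (3, 3 and 3) did not exceed the floor of 3 counts, so their likeness there rests on few reads. GLCE, an epimerase of heparan sulfate synthesis, had 725, 555 and 737 counts with vehicle and 159, 157 and 135 with DOX in DU-145 cells, and 844, 563 and 744 with vehicle and 278, 161 and 170 with DOX in LNCaP-AI cells. CHGB lay closest to ETV1 (0.322), RTL1 (0.333) and MGP (0.364), and SCG2 to TLR4 (0.334), CDH2 (0.359) and SYT14 (0.453). These genes shared the absence from DU-145 cells: ETV1, an ETS factor, had at most 2 counts there, and 0, 98 and 145 with vehicle and 117, 0 and 1 with DOX in LNCaP-AI cells, and CDH2 (N-cadherin) had 0 counts there, and 0, 325 and 473 with vehicle and 360, 0 and 1 with DOX. PEG10 lay closest to CYBRD1 (0.270), CA2 (0.344) and LGALS3 (0.371), which were present in DU-145 cells as PEG10 was. LGALS3 (galectin-3) had 842 to 1090 counts in DU-145 cells and 9, 793 and 1433 with vehicle and 1042, 1 and 5 with DOX in LNCaP-AI cells. SYP lay closest to SLC25A14 (0.205), ATP6V0B (0.225) and ERCC6L2-AS1 (0.243). ATP6V0B, a subunit of the vesicular proton pump, had 533, 548 and 640 counts with vehicle and 980, 1103 and 1161 with DOX in DU-145 cells, and 2385, 2293 and 3266 with vehicle and 3676, 2434 and 2475 with DOX in LNCaP-AI cells. ENO2 lay closest to TYK2 (0.0950), BRD9 (0.0953) and SPPL3 (0.104), which were expressed steadily in all 4 groups.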

How the data were processed

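Total RNA from cells cultured in triplicate was made into TruSeq stranded mRNA libraries. The submitters' processing notes list CASAVA 1.8.2, STAR 2.7.0, DESeq2 1.24.0 and GRCh38.p7, and the authors deposited raw counts per gene without normalization. The counter and its strand setting are not given in the sources used here. The study's statistics section refers to distinct samples for every experiment, but no source used here ties these libraries to separate cultures or days, so p-values measure the spread between these samples. Groups came from the sample labels, and the DOX dose and time from the study's legends.

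Here, counts were tested with edgeR 4.0.16 in R 4.3.3 (TMM, quasi-likelihood, at least 10 counts in at least 3 samples of the fit, adjusted p under 0.05), within each line, between vehicle samples of the lines, and as an interaction over all 12 samples. SE was derived from the fold change and F, and intervals use the fit's degrees of freedom. CPM used TMM over all 12 samples. Positions and exon lengths are from GENCODE release 44 (GRCh38). Alternatives were DESeq2 1.42.0, other scalings and filters, a replicate block, a shared fit, the division of the LNCaP-AI samples as a covariate, and leaving out each sample. On counts simulated with 200 genes changed by a log2 fold change of 2, 62% were recovered in LNCaP-AI cells (15500 genes) and 95% in DU-145 cells (13474 genes). Replicates of a group differed by a chi-square of at least 2.38 per degree of freedom, so none was counted as a duplicate.

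The 9 genes, the lists and the naming rule were chosen with earlier results of these data known. Named are the 9 genes, MUC1, the paralogs, AURKA, MYCN, EZH2 and SOX2, up to 5 called genes per list and comparison by adjusted p, and the 3 nearest profiles of each gene with a mean of at least 1 CPM. Other genes of the lists were named after their values were seen. A few genes named by this rule or held in the lists are not reported here.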

Additional observations from a re-analysis of the deposited data

Results flagged for a closer look

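The DOX effect on NCAM1 was called as different between the lines (interaction of line and treatment, log2 3.80, SE 0.925, edgeR's quasi-likelihood adjusted p = 0.0303 over 12 samples). NCAM1 passed the minimum for testing only through vehicle samples, where it was high, and its DU-145 DOX counts were 2, 0 and 2. The call was lost in edgeR with the replicate block (adjusted p = 0.175), and DESeq2 gave no adjusted p for NCAM1. NCAM1 fell by 4.81 on the log2 scale in DU-145 cells, in 3 of 3 DOX samples, and had 4 to 16 counts in the LNCaP-AI samples. The difference was 3.19 to 4.25 when single samples were left out, with adjusted p from 0.0195 to 0.0912.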

How the results depend on the processing

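In LNCaP-AI cells 2043 genes were called, against 3517 by DESeq2, 3933 with all 12 samples in a single fit and 6271 with the division as a covariate, a covariate taken from the same counts, with which 2 of the 9 genes (SYP and PEG10) were called in place of 0. Leaving out single samples gave 1 to 3538 calls, the lowest without DOX replicate 2 or 3 and the highest without DOX replicate 1. In DU-145 cells 7033 genes were called, against 4083 with all 12 samples in a single fit. For the difference between the lines 1543 genes were called, against 2278 by DESeq2, 884 without a filter, 4109 with the covariate and 737 to 3471 without single samples. Of the 9 genes, 1 was called in that comparison, against 0 by DESeq2, 3 with the covariate (NCAM1, CHGB and PEG10) and 0 to 2 without single samples. Between the vehicle samples 3 of the 9 were called, and 5 without a filter.

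Replicate numbers did not pair the samples. The correlation of same-numbered deviations was -0.941, -0.813 and -0.841 in LNCaP-AI cells and 0.125, -0.0895 and 0.0747 in DU-145 cells. With the replicate block, edgeR called 0 genes in LNCaP-AI cells (2909 at an unadjusted p under 0.05), 6924 in DU-145 cells, and 52 genes and 0 of the 9 for the difference between the lines.

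Among the log2 fold changes recomputed under the alternatives, those of SYP, ENO2, NCAM1, PEG10, CHGB, SCG2, SGCE, MUC1, AURKA and EZH2, none changed direction, and other named genes were not recomputed. NCAM1 in DU-145 cells could not be tested when any of the vehicle samples was left out, which left 2 of the 9 genes called there. The causes of these changes were not tested. Counts of 3 or fewer limit INSM1 and CHGA in both lines and CHGB and SCG2 in DU-145 cells, and counts of at most 12 limit POU3F2.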
